A study of Rattus norvegicus with 16 samples.

Results

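MHC class II molecules display peptides from ingested protein to helper T cells, and 9 rat genes of that machinery were followed in liver RNA: the class II chain genes RT1-Da, RT1-Db1, RT1-Ba and RT1-Bb, the chaperone gene Cd74, the peptide exchange genes RT1-DMa and RT1-DMb, the protease gene Ctss and the coactivator gene Ciita. They were found as the probe sets that the array's annotation, with symbols updated by gene identifier, assigns to exactly 1 of these symbols. That gave 14 of the 31139 probe sets on the array. Of these, 13 exceeded the line for low signals (3.68 log2 on at least 4 arrays), and each gene was represented by its probe set of highest mean, so that all 9 genes were among 11485 tested. The chosen probe set of each of the 9 genes lay above that line on all 16 arrays. RT1-Bb is listed under a pair of gene identifiers with the same symbol, so counts are also given for the other 8 genes.

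The samples were liver RNA of 16 male F344 rats, an inbred strain, aged 4 weeks per the labels and reared for 3 weeks in 4 groups of 4, with 1 Affymetrix RG-230 PM array each. The control normal-diet group ate basal chow, drank dehydrogenized water and lived in plain air. The hydrogen normal-diet group ate the same chow, drank water with 0.7 mM dissolved hydrogen and breathed air with 2% hydrogen. The control CDAA and hydrogen CDAA groups received the same water and air as their counterparts but ate the CDAA diet, free of choline and with amino acids in place of protein, which is known to produce fatty liver in rats. Nothing in the labels says that animals were pooled, and each sample is a piece of whole liver with its mixture of cells. The arrays had nearly equal distributions (medians of 4.33 to 4.37 log2), no pair of arrays held identical values, and control normal-diet replicate 4 lay at −13.4 on the leading principal component against −35.1 to −32.3 for the rest of its group and 23.8 to 40.1 for the CDAA arrays. The number of arrays limits the precision.

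In the rat, the class II chains pair as RT1-D (RT1-Da with RT1-Db1) and RT1-B (RT1-Ba with RT1-Bb). Cd74, the invariant chain, occupies their groove until cathepsin S (Ctss) trims it, and the RT1-DM pair then exchanges the remaining fragment for antigenic peptide. Macrophages, dendritic cells and B cells are the classical expressers, in liver mainly Kupffer cells and other macrophages, and hepatocytes carry little. Transcription depends on a promoter module in which RFX proteins bind an X box and NF-Y binds a Y box, both of which are needed to recruit CIITA, the protein of Ciita.

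The chain and DM genes lie together in the rat MHC on chromosome 20 (GRCr8, RefSeq gene bounds): RT1-Da at 4515393 to 4520387, RT1-Db1 at 4550594 to 4560182, RT1-Ba at 4577057 to 4581650, RT1-Bb at 4598475 to 4604118, RT1-DMb at 4695009 to 4702560 and RT1-DMa at 4708932 to 4712335. Cd74 lies on chromosome 18 (56527071 to 56536406), Ciita on chromosome 10 (5646854 to 5694393) and Ctss on chromosome 2 (185775316 to 185803440). RefSeq promoters (GRCr8, 250 bases before to 50 bases after the annotated start) were matched for 7 of the 9 genes and searched on both strands for X-box letters, GNNACNG, and Y-box letters, TGATTGG, which were chosen with these promoters in view. In 5 of the 7, X-box letters preceded Y-box letters by 30 or 31 bases, start to start. These windows are shown because the pair is what these 5 promoters have in common, and any link to the signals was not tested. The first block of capitals is the X-box match and the second the Y-box match.
RT1-Da (chr20:4515327-4515376, + strand): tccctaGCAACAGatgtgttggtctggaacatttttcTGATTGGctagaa
RT1-Db1 (chr20:4560232-4560280, - strand): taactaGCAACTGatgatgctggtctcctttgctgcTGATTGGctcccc
RT1-Ba (chr20:4576975-4577024, + strand): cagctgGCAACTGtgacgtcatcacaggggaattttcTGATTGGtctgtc
RT1-Bb (chr20:4604169-4604217, - strand): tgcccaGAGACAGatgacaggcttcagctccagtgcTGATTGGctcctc
RT1-DMa (chr20:4712389-4712438, - strand): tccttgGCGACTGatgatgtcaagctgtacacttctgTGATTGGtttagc

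Among all 33469 promoters of that table, the Y-box letters occurred in 7.06% and the loose X-box letters in 88.1%. The ordered pair with starts 25 to 45 bases apart occurred in 230 promoters (0.687%). The promoter windows of Cd74 and Ctss held X-box but no Y-box letters, so no pair was found there, which says only that these letters are not in those windows. A match is a description of the reference sequence, and binding was not measured.

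**Figure D1:**
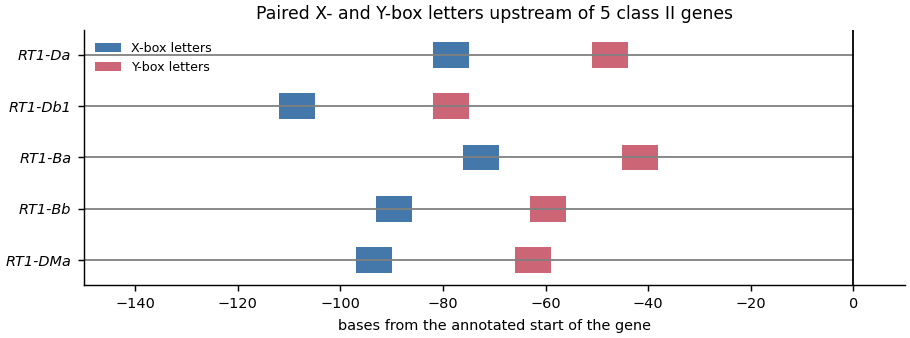
Position of the paired X-box and Y-box letters (7 bases each) in 5 promoters, in bases from the annotated start of the gene (vertical line at 0). The X-box match begins between −112 (RT1-Db1) and −76 (RT1-Ba), and the Y-box match follows it by 30 or 31 bases in each.

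Signals below are the authors' normalised log2 values, and levels of different probe sets are not set against each other. RT1-Da, the alpha chain of RT1-D, lay at 9.15, 8.60, 9.54 and 9.33 on the control normal-diet arrays and at 8.87, 9.05, 8.86 and 8.86 on the hydrogen normal-diet arrays. On the CDAA diet it lay at 9.93, 9.83, 10.21 and 10.04 in control rats and at 10.33, 10.12, 10.14 and 9.91 under hydrogen. Every CDAA array lay above every normal-diet array. RT1-Db1, its beta chain, lay at 8.30, 7.90, 8.86 and 8.53 (control, normal diet), 7.97, 8.34, 8.06 and 8.17 (hydrogen, normal diet), 8.72, 8.73, 9.14 and 9.05 (control, CDAA) and 9.21, 9.03, 9.05 and 8.87 (hydrogen, CDAA). Here control normal-diet replicate 3, at 8.86, reached into the range of the control CDAA arrays, while the hydrogen groups did not overlap.

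RT1-Bb, the beta chain of RT1-B, lay at 7.74, 7.21, 8.12 and 8.12 in control rats on the normal diet, and at 7.47, 7.67, 7.46 and 7.48 in hydrogen-treated rats on it. CDAA arrays read 8.66, 8.59, 9.08 and 8.91 without hydrogen and 9.11, 9.01, 8.95 and 8.68 with it, again without overlap between the diets. RT1-Ba, the partner alpha chain, read 8.45, 7.74, 9.05 and 8.64 (control, normal diet), 8.23, 8.49, 8.20 and 8.25 (hydrogen, normal diet), 9.04, 9.11, 9.45 and 9.31 (control, CDAA) and 9.59, 9.41, 9.46 and 9.18 (hydrogen, CDAA) on the probe set of highest mean. Control normal-diet replicate 3 again touched the lowest control CDAA array, at 9.05 against 9.04.

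Cd74, the invariant chain, lay at 9.35, 8.77, 9.74 and 9.52 in control rats on the normal diet and at 10.02, 9.88, 10.33 and 10.05 in control rats on the CDAA diet. Under hydrogen it lay at 9.22, 9.35, 9.10 and 9.07 on the normal diet and at 10.40, 10.20, 10.22 and 9.89 on the CDAA diet. The diets did not overlap on this gene, and control normal-diet replicate 2 gave its lowest value. That array was also the lowest of its group for all 4 class II chain genes, RT1-DMa, RT1-DMb and Ctss. Its mean over 17 macrophage and Kupffer cell markers was 6.83, the lowest of the group's range of 6.83 to 7.53. That array was also the group's lowest on 8 pan-leukocyte markers (6.52, range 6.52 to 7.08) and 5 sinusoidal endothelial markers (7.17, range 7.17 to 7.69). On dendritic, B and T cell markers it was not the lowest, and on hepatocyte markers it was the highest (12.70). The part of these cell types in the spread was not tested.

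RT1-DMa and RT1-DMb, which form the peptide exchange factor, followed the same order of groups with smaller differences. RT1-DMa lay at 5.94, 5.78, 6.36 and 6.14 (control, normal diet), 5.98, 6.10, 5.88 and 5.82 (hydrogen, normal diet), 6.31, 6.27, 6.82 and 6.42 (control, CDAA) and 6.52, 6.88, 6.52 and 6.15 (hydrogen, CDAA). RT1-DMb lay at 7.31, 7.17, 7.56 and 7.55, at 7.25, 7.24, 7.07 and 6.92, at 7.87, 7.79, 8.08 and 7.69 and at 8.12, 8.26, 8.05 and 7.63 in the same order of groups. The control groups overlapped on RT1-DMa and not on RT1-DMb.

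Ctss, the protease that trims the invariant chain, lay at 9.40, 9.03, 9.56 and 9.59 (control, normal diet), 9.31, 9.40, 9.14 and 9.13 (hydrogen, normal diet), 9.83, 9.58, 9.92 and 9.84 (control, CDAA) and 10.04, 10.12, 9.93 and 9.67 (hydrogen, CDAA). Only the control groups overlapped between the diets, by 9.58 against 9.59. Ciita, the coactivator, went the other way at a low level, with 4.96, 4.95, 4.78 and 4.77 (control, normal diet), 4.69, 4.93, 4.85 and 4.88 (hydrogen, normal diet), 4.77, 4.64, 4.68 and 4.58 (control, CDAA) and 4.60, 4.72, 4.68 and 4.73 (hydrogen, CDAA). Its groups overlapped on both sides of hydrogen.

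**Figure D2:**
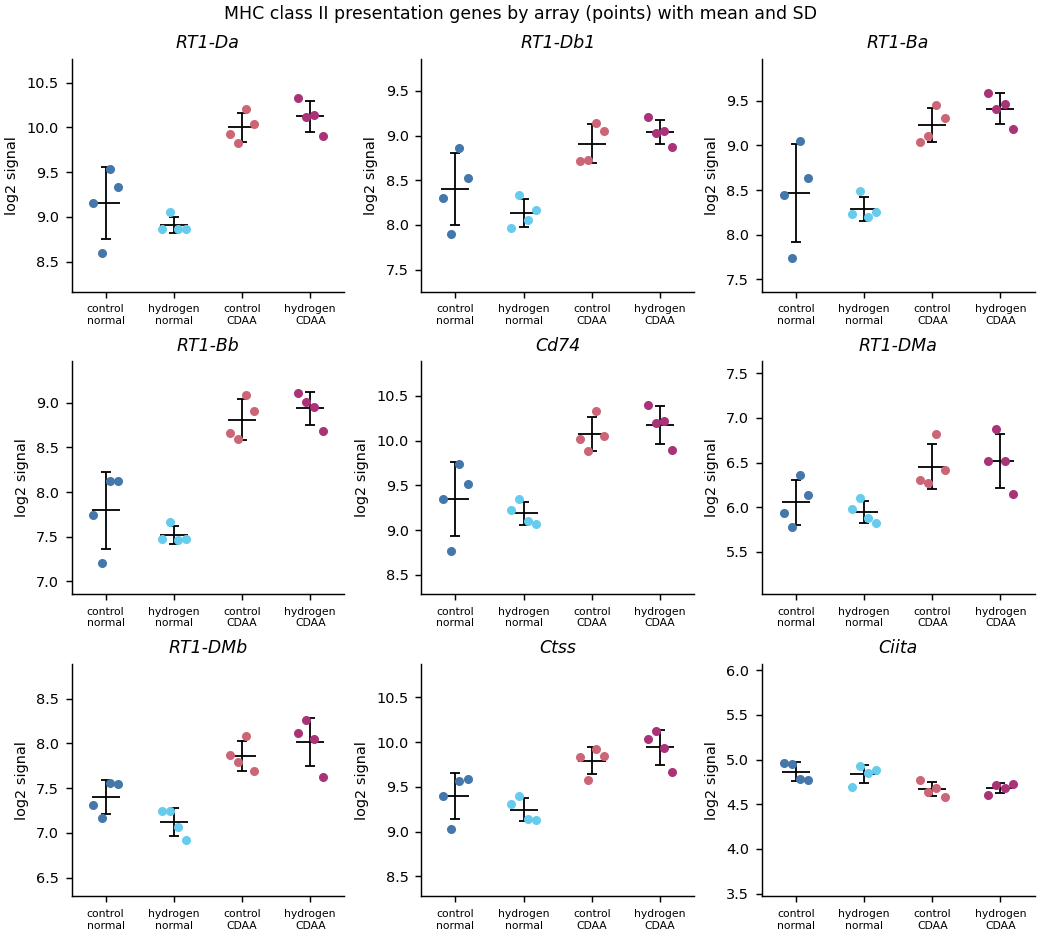
Normalised log2 signal of the 9 genes (y axis, the same span of log2 units in every panel) in the 4 groups (x axis), with 1 point per array, a bar at the mean and whiskers of 1 SD (n = 4). In 8 genes both CDAA groups have higher means than both normal-diet groups (Cd74 at 10.07 and 10.18 against 9.34 and 9.19), and Ciita is lower on the CDAA diet (4.67 and 4.68 against 4.86 and 4.84).

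The diet comparison in control rats asks what the CDAA diet changed without hydrogen. The 4 chain genes, Cd74, RT1-DMb and Ctss rose, and Ciita fell. RT1-Bb was 2.02-fold higher (log2 difference 1.01 with a standard error of 0.167, 4 rats in each group, adjusted p = 2.47e-04) and RT1-Da 1.80-fold higher (0.85 ± 0.151, adjusted p = 4.70e-04). Cd74 was 1.65-fold higher (adjusted p = 0.00267), RT1-Ba 1.69-fold (adjusted p = 0.00606), RT1-DMb 1.38-fold (adjusted p = 0.0111), RT1-Db1 1.43-fold (adjusted p = 0.0197) and Ctss 1.32-fold (adjusted p = 0.0188). Ciita was 1.15-fold lower (log2 −0.20 ± 0.067, adjusted p = 0.0307). RT1-DMa had a difference of the same size as Ctss but a larger error (0.40 ± 0.152, adjusted p = 0.0509) and did not pass.

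Thus 7 of 9 genes rose, against 27.3% of the 11485 genes tested, and 1 fell, against 13.3% (40.6% of all genes in either direction). Without RT1-Bb 6 of 8 rose. Their median log2 difference was 0.51, and that of all genes 0.04. On 4 genes (RT1-Da, RT1-Bb, Cd74 and RT1-DMb) the groups did not overlap, all higher on CDAA, where 24.7% of all genes were higher without overlap. The p-values are from limma with Benjamini-Hochberg adjustment over the 22634 probe sets tested. Leaving out control normal-diet replicate 2 or control CDAA replicate 3 reduced the 8 called genes to 5, in each case without RT1-Db1 (adjusted p = 0.0711 and 0.0664), Ciita (0.0936 and 0.0550) and Ctss (0.0700 and 0.0581). Over 25 alternatives Ciita passed in 19, RT1-Db1 in 20, Ctss in 23, RT1-Ba in 24 and RT1-DMa in 9, once at an adjusted p that rounds to 0.05, while RT1-Da, RT1-Bb, Cd74 and RT1-DMb passed in all 25.

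In hydrogen-treated rats, a separate set of 8 animals, the same diet comparison gave 8 genes that rose, the 7 above and RT1-DMa. RT1-Bb was 2.67-fold higher (1.42 ± 0.167, adjusted p = 8.85e-06), RT1-Da 2.32-fold (1.21 ± 0.151, adjusted p = 1.47e-05), RT1-Ba 2.17-fold (adjusted p = 2.57e-04) and Cd74 1.99-fold (adjusted p = 1.71e-04). RT1-Db1 was 1.87-fold higher (adjusted p = 3.02e-04), RT1-DMb 1.86-fold (adjusted p = 5.32e-05), Ctss 1.62-fold (adjusted p = 3.07e-04) and RT1-DMa 1.49-fold (adjusted p = 0.00635). Ciita did not pass (log2 −0.16 ± 0.067, adjusted p = 0.0704). Of all genes tested 32.1% were called higher and 17.4% lower, 49.5% in all. The 8 genes were also without overlap between the hydrogen groups, which held for 28.9% of all genes in that direction. The median log2 difference was 0.91 over the 9 genes and 0.05 over all genes, and without RT1-Bb 7 of 8 rose. These 8 genes passed in each of the 25 alternatives, and Ciita passed in 2.

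Hydrogen against control was compared within each diet, which addresses whether hydrogen altered these genes. Neither comparison gave a call among the 9. On the normal diet the differences ran from −0.28 (RT1-Bb and RT1-DMb) to −0.03 (Ciita), and the adjusted p-values from 0.668 to 0.963 in limma, where 0.00871% of all genes were called. The groups overlapped on all 9 genes, where 5.69% of all genes did not overlap. Among the 9 chosen probe sets RT1-DMb alone had an unadjusted p under 0.05, as had 7.08% of all genes, and its 95% interval ran from −0.55 to just under 0. For Cd74 the interval of the log2 difference was −0.51 to 0.19, for RT1-Da −0.57 to 0.08 and for RT1-Bb −0.63 to 0.08. These differences turned on single control arrays. Without control normal-diet replicate 2 they were −0.35 for Cd74, −0.43 for RT1-Da and −0.47 for RT1-Bb, and without replicate 3 −0.03, −0.12 and −0.17, none of them called (adjusted p from 0.556 to 0.993 over the 25 alternatives). Arrays of the control group spread more widely on Cd74 (SD 0.415) than those of the hydrogen group (SD 0.128).

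On the CDAA diet the differences of hydrogen against control ran from 0.01 (Ciita) to 0.18 (RT1-Ba). In limma the adjusted p-values were 0.684 to 0.960, with no unadjusted p under 0.05, and 0.374% of all genes were called. The groups again overlapped on all 9 genes, where 3.78% of all genes did not. The interval was −0.24 to 0.45 for Cd74, −0.20 to 0.44 for RT1-Da and −0.23 to 0.48 for RT1-Bb. The interaction, the diet difference under hydrogen minus that in control rats, was 0.27 for Cd74 (95% interval −0.22 to 0.76), 0.37 for RT1-Da (−0.09 to 0.82) and 0.41 for RT1-Bb (−0.10 to 0.91). None of the 9 passed (smallest adjusted p = 0.507, RT1-DMb, which among the 9 chosen probe sets alone had an unadjusted p under 0.05), and 0% of all genes did (9.29% had an unadjusted p under 0.05). The larger folds of the diet under hydrogen are thus not shown to differ from those in control rats. These comparisons share arrays with the diet comparisons. The order of means for the 8 genes other than Ciita was hydrogen normal, control normal, control CDAA and hydrogen CDAA. Among neighbours in that order, control normal and control CDAA had called differences (7 of the 8 genes). Groups of the same diet had none, which does not show that they are equal.

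**Figure D3:**
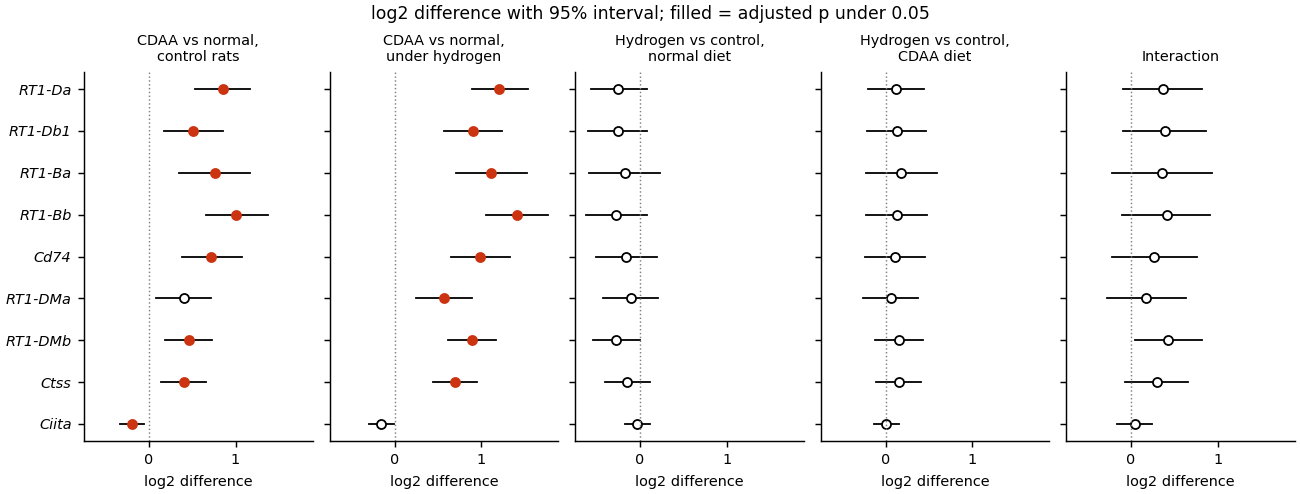
log2 difference (x axis) of the 9 genes in 5 comparisons, with 95% intervals from limma; a filled point has an adjusted p under 0.05. Of 9 genes, 8 are called for the diet in control rats (7 higher, Ciita lower), 8 for the diet under hydrogen, and 0 in the comparisons of hydrogen and the interaction.

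RT1-Ba had 4 probe sets, and they disagreed. Probe set 1370822_PM_at, used above, was the brightest, with a mean of 8.85 over 16 arrays. Probe set 1392334_PM_at fell on the CDAA diet under hydrogen (6.46, 6.76, 6.62 and 6.69 on the normal diet against 6.37, 6.34, 6.27 and 6.45, log2 −0.28 ± 0.073, adjusted p = 0.00643), and in control rats its difference was −0.14 (adjusted p = 0.159). Probe set 1381593_PM_x_at, designed on the same sequence accession, had −0.16 under hydrogen (adjusted p = 0.111) and −0.15 in control rats (adjusted p = 0.170). Probe set 1377334_PM_at rose on the CDAA diet in hydrogen-treated rats (log2 0.34 ± 0.064, adjusted p = 5.21e-04). Its signals there were 3.51 to 4.00, with all 4 hydrogen normal-diet arrays below 3.68. In control rats its difference was 0.09 (adjusted p = 0.283).

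Over 16 arrays the brightest probe set correlated at −0.686 with 1392334_PM_at, −0.589 with 1381593_PM_x_at and 0.713 with 1377334_PM_at, which describes arrays that share the diet groups. After group means were subtracted these values were −0.190, −0.184 and 0.039. Averaging the probe sets gave RT1-Ba a log2 difference of 0.14 in control rats (adjusted p = 0.111) and 0.25 under hydrogen (adjusted p = 0.00599), so the call in control rats rests on the choice of the brightest set. The part of the transcript each set reads was not analysed here. The pair of sets for RT1-Db1, both designed on the same sequence accession, went together (correlation 0.977, or 0.936 with group means subtracted). They are thus not independent readings of the gene. On the CDAA diet set 1370382_PM_at rose by 0.72 in control rats (adjusted p = 0.00234) and by 1.26 in hydrogen-treated rats (adjusted p = 1.76e-05). In the comparisons of hydrogen none of these further sets was called, but some had an unadjusted p under 0.05. On the normal diet these were 1370382_PM_at of RT1-Db1 (log2 −0.41, adjusted p = 0.595) and, of RT1-Ba, 1377334_PM_at (−0.18, adjusted p = 0.561) and 1392334_PM_at (0.17, adjusted p = 0.638). In the interaction they were 1370382_PM_at (0.54, 95% interval 0.06 to 1.01, adjusted p = 0.508) and 1377334_PM_at (0.25, 0.06 to 0.44, adjusted p = 0.464), and on the CDAA diet there was none. The remaining RT1-Bb set, 1371065_PM_at, lay at 2.95 to 3.15 on all arrays, below the line, and was not tested.

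**Figure D4:**
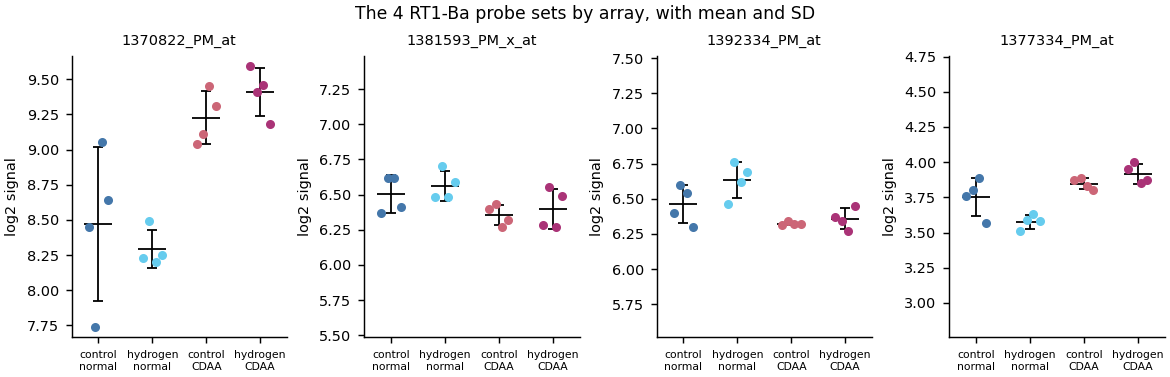
Normalised log2 signal of the 4 RT1-Ba probe sets (y axis, the same span in each panel) in the 4 groups, with 1 point per array, a bar at the mean and whiskers of 1 SD (n = 4). The set 1370822_PM_at has higher means on the CDAA diet (9.23 and 9.41 against 8.47 and 8.29), while 1381593_PM_x_at and 1392334_PM_at have slightly lower ones (6.36 and 6.40 against 6.50 and 6.56, and 6.32 and 6.36 against 6.46 and 6.63).

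Upstream of the class II genes stand the RFX and NF-Y factors and the interferon gamma pathway that switches CIITA on. Of 21 listed regulators and further class II genes 13 were measured, and 4 rose and 0 fell on the CDAA diet in control rats (median log2 difference 0.07, all genes 0.04). That count is near the 27.3% of all genes called higher, so it is not a result about the regulators as a group. The genes were Rfx5, the large RFX subunit (1.47-fold, adjusted p = 0.00101), Nfyc, a subunit of NF-Y (1.23-fold, adjusted p = 8.58e-04), and the interferon gamma receptor genes Ifngr1 (1.44-fold, adjusted p = 0.00102) and Ifngr2 (1.39-fold, adjusted p = 0.00151). Under hydrogen 7 of 13 rose and 0 fell (median 0.16), where 32.1% of all genes rose and 17.4% fell. Ifngr1 was 1.82-fold higher, Rfx5 1.72-fold, Ifngr2 1.54-fold and Nfyc 1.23-fold. Of the costimulatory genes only Cd40 and Cd86 were measured of 6 listed. Cd86, a ligand for CD28 on T cells, had a difference of 0.22 in control rats (adjusted p = 0.0889) and rose 1.39-fold under hydrogen (adjusted p = 0.00116).

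On the list of endosomal proteases and antigen processing genes, more genes rose than fell. All 13 listed genes were measured, and 7 rose and 1 fell in control rats (median 0.25), 9 rose and 1 fell under hydrogen (median 0.36). Of all genes 27.3% were called higher and 13.3% lower in control rats, and 32.1% and 17.4% under hydrogen. Lgmn, the asparaginyl endopeptidase, was 1.79-fold higher in control rats (adjusted p = 3.27e-04) and 2.43-fold under hydrogen (adjusted p = 5.82e-06). Ctsz, a cathepsin, rose 1.78-fold in control rats, and Ctsd, the aspartic cathepsin, 1.57-fold and 1.80-fold. Cst3, a cathepsin inhibitor, also rose (1.64-fold and 1.80-fold), as did Ifi30, the thiol reductase of antigen processing, under hydrogen (1.66-fold, adjusted p = 2.55e-05). The gene that fell was Ctsh, named after its values were seen (1.20-fold lower, adjusted p = 0.00175, and 1.25-fold lower under hydrogen). The endosomal enzymes also serve lysosomal turnover in general.

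Class I presentation, which serves peptides made in the cytosol, gave calls in both directions in similar numbers. Of 14 measured genes of 19 listed, 2 rose and 2 fell in control rats (median −0.03), and 4 rose and 4 fell under hydrogen (median 0.06). The shares of all genes were 27.3% higher and 13.3% lower in control rats, and 32.1% and 17.4% under hydrogen. In control rats Erap1, a peptide-trimming aminopeptidase, rose 1.28-fold (adjusted p = 0.00611) and Tapbp, tapasin, 1.16-fold (adjusted p = 0.0420), while the class I genes RT1-S3 (1.77-fold lower, adjusted p = 0.00374) and RT1-CE16 (1.19-fold lower, adjusted p = 0.00359) fell. Class I genes are a family of close copies, so these sets can bind related members. Under hydrogen Psmb10, an immunoproteasome subunit, rose 1.73-fold (adjusted p = 3.29e-04) and Erap1 1.53-fold, and Calr, calreticulin, was 1.20-fold lower (adjusted p = 0.00793). In the comparisons of hydrogen on the normal diet, hydrogen on the CDAA diet and the interaction, limma called 0 genes of each of these 4 lists. At an unadjusted p under 0.05 the counts in that order were 4, 2 and 1 of 13 regulators, 0, 1 and 2 of 13 endosomal genes, 0, 1 and 0 of 2 costimulatory genes, and 0, 0 and 1 of 14 class I genes. Of all genes 7.08%, 12.6% and 9.29% had such a p.

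Markers of leukocytes moved with the class II genes, and their part in the differences was not tested. In whole liver, more cells of a type and more RNA per cell cannot be told apart. On the CDAA diet 27.3% of all genes were called higher and 13.3% lower in control rats, and 32.1% and 17.4% under hydrogen. Ptprc, the pan-leukocyte phosphatase CD45, rose 1.93-fold on the CDAA diet in control rats (adjusted p = 9.02e-05) and 2.67-fold under hydrogen (adjusted p = 1.85e-06). Of 8 measured pan-leukocyte markers 7 rose in either comparison (medians 0.78 and 1.20), and the list's mean per array was 6.52 to 7.08 and 6.61 to 6.83 on the normal diet (control, hydrogen) against 7.47 to 7.76 and 7.63 to 8.13 on CDAA. Of 17 measured markers of macrophages, Kupffer cells included, 8 rose and 1 fell in control rats, and 11 rose and 0 fell under hydrogen (medians 0.40 and 0.44). Their mean per array was 6.83 to 7.53 and 7.12 to 7.31 on the normal diet against 7.56 to 7.91 and 7.70 to 8.03 on CDAA. These means include Gpnmb, named after its values were seen, which had the largest differences of the list (log2 2.57 and 3.21). How far it sets the list means was not tested. Cd68, a macrophage lysosomal protein, was 1.88-fold and 2.28-fold higher and Adgre1, which encodes F4/80, 1.53-fold and 2.31-fold, whereas Clec4f, the lectin of resident Kupffer cells, was 1.53-fold lower in control rats (adjusted p = 0.00892) and did not pass under hydrogen (log2 −0.38, adjusted p = 0.0704).

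Markers of the other professional presenters, and those of T cells, gave few calls. For the diet 40.6% (control rats) and 49.5% (under hydrogen) of all genes were called. In limma 0 of 7 measured dendritic cell markers of 12 listed passed in either diet comparison (0 and 1 at an unadjusted p under 0.05, medians −0.05 and 0.00), and the list's mean stayed between 4.67 and 4.87 on all arrays. Flt3, the growth factor receptor of that lineage, lay at 4.10 to 4.29. B cell markers gave 1 call of 6 measured of 10 listed in either comparison (medians −0.08 and −0.09, array means 4.66 to 4.88). That call was Blnk (1.79-fold and 2.20-fold higher), an adaptor also made in macrophages. The B cell receptor component Cd79b lay at 3.58 to 3.87, with 7 of 16 arrays above 3.68, and the B cell antigen Ms4a1 at 3.74 to 4.36. T cell markers gave 1 rise and 1 fall of 8 measured of 12 listed in control rats and 1 rise under hydrogen, the rise being Cd3e (1.13-fold, adjusted p = 0.0494, and 1.14-fold, adjusted p = 0.0245) and the fall Lck (1.25-fold lower), which like Blnk was named after its values were seen.

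**Figure D5:**
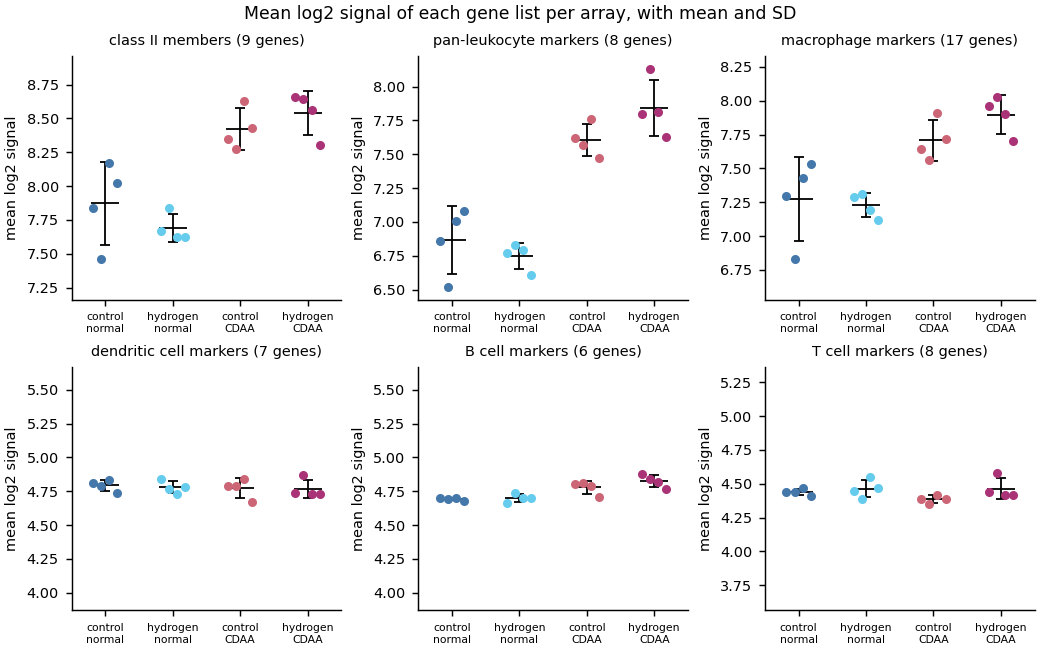
Mean log2 signal per array (y axis, the same span in each panel) over the measured genes of 6 lists in the 4 groups, with 1 point per array, a bar at the mean and whiskers of 1 SD (n = 4). Class II, pan-leukocyte and macrophage means are higher on the CDAA diet (class II 8.27 to 8.66 against 7.46 to 8.17), and dendritic cell means lie between 4.67 and 4.87 in every group.

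The class II genes also moved together from rat to rat. Over 16 arrays Cd74 correlated with RT1-Da at 0.992, RT1-Ba at 0.988, RT1-Bb at 0.985, Ctss at 0.972, RT1-Db1 at 0.969, RT1-DMb at 0.944, RT1-DMa at 0.914 and Ciita at −0.777. The arrays share the diet groups, and with group means subtracted the values were 0.986, 0.955, 0.954, 0.904, 0.904, 0.778, 0.793 and −0.437 in that order. By this within-group measure RT1-Da, RT1-Ba and RT1-Bb ranked 1 to 3 among 11484 genes and Ciita 10857. The control normal-diet arrays weigh most in it. Their SD on Cd74 was 0.415, against 0.128, 0.189 and 0.212 in the other groups, with replicate 2 lowest at 8.77. How far that array sets these values and ranks, and those of other genes below, was not tested. Outside the class II genes the most similar patterns over 16 arrays were those of Aif1 (0.974), Siglec5 (0.972), Cybb (0.971), Igsf6 (0.968), Cd68 (0.968), Ctla2a (0.966), Csf1r (0.964), Tyrobp (0.963), St3gal4 (0.963) and Adgre1 (0.962). With group means subtracted they were C1qb (0.945), Aif1 (0.936), C1qa (0.931), Pla2g4a (0.921), C1qc (0.916), Csf1r (0.914), Stab2 (0.914), Igsf6 (0.896), Adgre1 (0.889) and Anxa3 (0.881). Aif1, Cd68, Csf1r, Adgre1 and the C1q genes are on the macrophage list, whose 17 measured genes did not all follow Cd74. They ran from −0.445 (Clec4f) to 0.974 with a median of 0.799 over 16 arrays, and from −0.302 (Cd14) to 0.945 with a median of 0.734 after group means were subtracted. Itgam stood at −0.141 and 0.353, Lyz2 at 0.606 and 0.203 and Ms4a7 at 0.691 and 0.250 by the respective measures. The 8 pan-leukocyte markers ran from 0.587 to 0.963 and from 0.248 to 0.846, with Ptprc at 0.943 and 0.702. Clec4f, Cd14, Itgam, Lyz2 and Ms4a7 were named after their values were seen. These are descriptions over 16 arrays, with no test.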

How the data were processed

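The values deposited by the authors are log2 signals of each probe set on each array. RMA is listed, as is Affymetrix Expression Console, in the submitters' processing notes without a version. RMA equalises the arrays' distributions, so a shift of all transcripts in a group would not show.

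From 31139 probe sets 97 array controls were left out, and 22634 exceeding the 30th percentile (3.68) on at least 4 arrays were tested. Names came from the platform annotation (19161 probe sets with 1 symbol, 474 with several, 11407 unlisted). Where a probe set had 1 symbol and 1 gene identifier, the current RefSeq symbol of that identifier was used if there was one. All 16 arrays entered a single limma fit (version 3.58.1, R 4.3.3) of 4 group means, with eBayes moderation. P-values were adjusted by Benjamini-Hochberg within each comparison, and an adjusted p under 0.05 was a call. Errors beside log2 differences are standard errors, and folds are those differences taken out of log2. P-values set a difference of group means against 1 spread between samples, pooled over the 4 groups. That spread differed between groups (SD of Cd74 from 0.128 to 0.415). The fit was tested on simulated data. Figures were drawn with matplotlib 3.10.9.

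The members, lists and letters searched were chosen with earlier results of these data known. All members and their probe sets are named, up to 4 called genes of each pathway list by smallest p, the 10 genes most correlated with Cd74, and defining cell markers. Replicate numbers recur in each group. With group means subtracted, same-numbered arrays had a mean correlation of 0.061, against −0.02 for other pairs of arrays from different groups. Of 24 same-numbered pairs 9 had a correlation over 0.1. The numbers were not taken as pairs in the main fit, though some shared structure is not excluded. A fit with them as a block is given below.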

Additional observations from a re-analysis of the deposited data

Results flagged for a closer look

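Hydrogen normal-diet replicate 2 stood apart from the other 3 arrays of its group on RT1-Bb (7.67 against 7.46 to 7.48) and on RT1-Da (9.05 against 8.86 to 8.87). The gap to the nearest other array took 0.905 and 0.947 of the group's range, above Dixon's critical value for 4 samples. Chance passes that value in about 1 of 20 groups, and 52 groups of values were examined. The same array also gave the highest Cd74 value of its group (9.35).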

How the results depend on the processing

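The 9 genes were refitted with other filters, scalings, variance models, array weights, gene values and samples. The number called for the diet in control rats was 6 to 9 over 9 such settings and 5 to 9 with 1 array left out, lowest without control normal-diet replicate 2 or control CDAA replicate 3, and for the diet under hydrogen 8 to 9 in each. It was 0 for both comparisons of hydrogen and the interaction under every alternative run. With the replicate number as a block the counts were 8, 8, 0, 0 and 0. Of 16 arrays 8 were closest to their own number among the 4 numbers, so some structure shared by number is not excluded. Leaving RT1-Bb out, an alternative chosen after seeing the data, gave 7, 7, 0, 0 and 0 called of 8. Quantile normalization applied again moved the median of all genes by −0.025 and −0.051 for the diet and median centring by 0.015 and 0.013. No diet difference of a member changed sign. All signs that turned were of uncalled differences. For hydrogen on the normal diet with 1 array left out, RT1-Ba ran from −0.42 to 0.02 (above 0 without control normal-diet replicate 3) and Ciita from −0.06 to 0.02 (0.00 without control normal-diet replicate 1 or 2, 0.02 without hydrogen normal-diet replicate 1). For hydrogen on CDAA, RT1-DMa ran from −0.06 to 0.19 (below 0 without hydrogen CDAA replicate 2) and was −0.02 with array weights, and Ciita ran from −0.01 to 0.05 (−0.01 without control CDAA replicate 4, 0.00 without hydrogen CDAA replicate 4). The interaction of Ciita ran from −0.01 (without hydrogen normal-diet replicate 1) to 0.08. The cause was not tested. Ciita lies near the low end of the signals, which limits what its small difference can show.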

Other observations

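Sinusoidal endothelial cells can also present antigen. Of 5 measured markers of 8 listed, 1 rose on the CDAA diet in control rats and 2 under hydrogen (medians 0.08 and 0.10). Of all genes, 27.3% and 32.1% were called higher, so these counts are not a result about the list. The scavenger receptor gene Stab2 had a correlation of 0.914 with Cd74 over 16 arrays with group means subtracted, against 0.720 for Stab1, 0.526 for Kdr, 0.462 for Lyve1 and 0.273 for Pecam1. Control normal-diet replicate 2, the lowest of its group on Cd74, also had the group's lowest mean of these markers (7.17, range 7.17 to 7.69). Of 7 measured hepatocyte markers 1 rose and 1 fell in either diet comparison (medians −0.03 and 0.01), and their mean per array lay between 12.62 and 12.70 on all arrays. The shares of all genes called in either direction were 40.6% in control rats and 49.5% under hydrogen.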
